A study of Mus musculus with 18 samples.

Results

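A set of 9 genes of the calcium, calmodulin, calcineurin and NFAT route was followed across sorted mouse ILC2 (group 2 innate lymphoid cells, which carry no rearranged antigen receptor and make type 2 cytokines). The genes were chosen by gene symbol: Stim1, Orai1, Calm2, Calm3, Ppp3ca, Ppp3cb, Nfatc1, Nfatc2 and Nfatc3, 9 of the 24781 gene entries counted. In lymphocytes, release of calcium from the endoplasmic reticulum is sensed by STIM proteins, which open ORAI channels in the plasma membrane. Calcium that enters binds calmodulin, calmodulin switches on the phosphatase calcineurin, and calcineurin removes phosphates from NFAT transcription factors so that they move to the nucleus. CD45, encoded by Ptprc, is a receptor tyrosine phosphatase that acts on Src-family kinases upstream of calcium release.

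The study compared ILC2 of CD45-deficient (CD45 KO) and control mice in 3 populations, lung ILC2, mature bone marrow ILC2 and immature bone marrow ILC2. There were 3 libraries in each of the 6 groups, 18 in all. Mice called CD45 KO here carry the genotype CD45 KO x Rag2 KO, and mice called control, which the sample titles name WT, are Rag2 KO. All mice therefore lack Rag2, and with it T and B cells. The labels name no agent given to the mice, and the cells were freshly sorted. The sources used here give neither age nor sex, nor whether the 3 libraries of a group came from separate mice, so p-values measure the spread between libraries, which may be technical.

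Library totals ran between 68077 and 122250 counts, and 7189 to 8793 genes were detected per library. A single count stood for 8.42 to 14.9 CPM, and a count of 0 allows up to 25.3 to 44.7 CPM, depending on the library and for counting error only. CPM here means counts scaled to the TMM-adjusted library size. Ptprc was lower in CD45 KO than in control ILC2 in lung (log2 fold change -1.86 ± 0.27, SE), mature marrow (-1.68 ± 0.29) and immature marrow (-2.01 ± 0.31), with edgeR adjusted p-values of 6.28e-07, 0.00015 and 7.9e-06. All 10 markers of the ILC2 list were counted in every group, and the list summed to 10878 to 13539 CPM in lung and 4516 to 7154 CPM in marrow libraries. Markers of T, B, NK, mast, epithelial and endothelial cells summed to at most 59.6 CPM and at most 6 counts a list in any library. Of 4 blood progenitor markers Kit alone had counts in lung, where the list summed to 432 to 501 CPM in CD45 KO and 342 to 422 CPM in control ILC2, against 21.0 to 130 CPM in marrow libraries, with Flt3 at 0 in all groups. Of 4 erythroid markers 2 had counts, at 0 to 64.2 CPM in lung and 47.7 to 158 CPM in marrow libraries, with Hbb-bs and Hbb-bt at 0. The ILC2, blood progenitor and erythroid lists move with the tissue difference, and their part in it was not tested. In addition 3 libraries stood apart. Mature control replicate 1 held 2116 CPM of neutrophil markers (142 counts). Lung CD45 KO replicate 1 held 153 CPM of macrophage and monocyte markers (11 counts). Ptprc was at 238 CPM in the library labelled mature CD45 KO replicate 1, while its group mates had 101 and 88.0 CPM. Without these 3 libraries Ptprc in mature ILC2 was at -2.40 (adjusted p = 1.4e-07).

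Of the 9 genes, 5 had enough counts to enter the test across 1916 genes (Orai1, Calm2, Calm3, Ppp3ca and Nfatc3). The other 4, Stim1, Ppp3cb, Nfatc1 and Nfatc2, were read from a fit of all 12945 genes with a count. None of the 9 passed in any comparison of CD45 KO with control, where that fit called 0.17% of genes in lung, 0.0541% in mature and 0.255% in immature ILC2. Between tissues, Orai1 and Calm2 were higher and Nfatc3 was lower in lung than in marrow ILC2. The plot of all 9 genes by library shows each value.

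**Figure D1:**
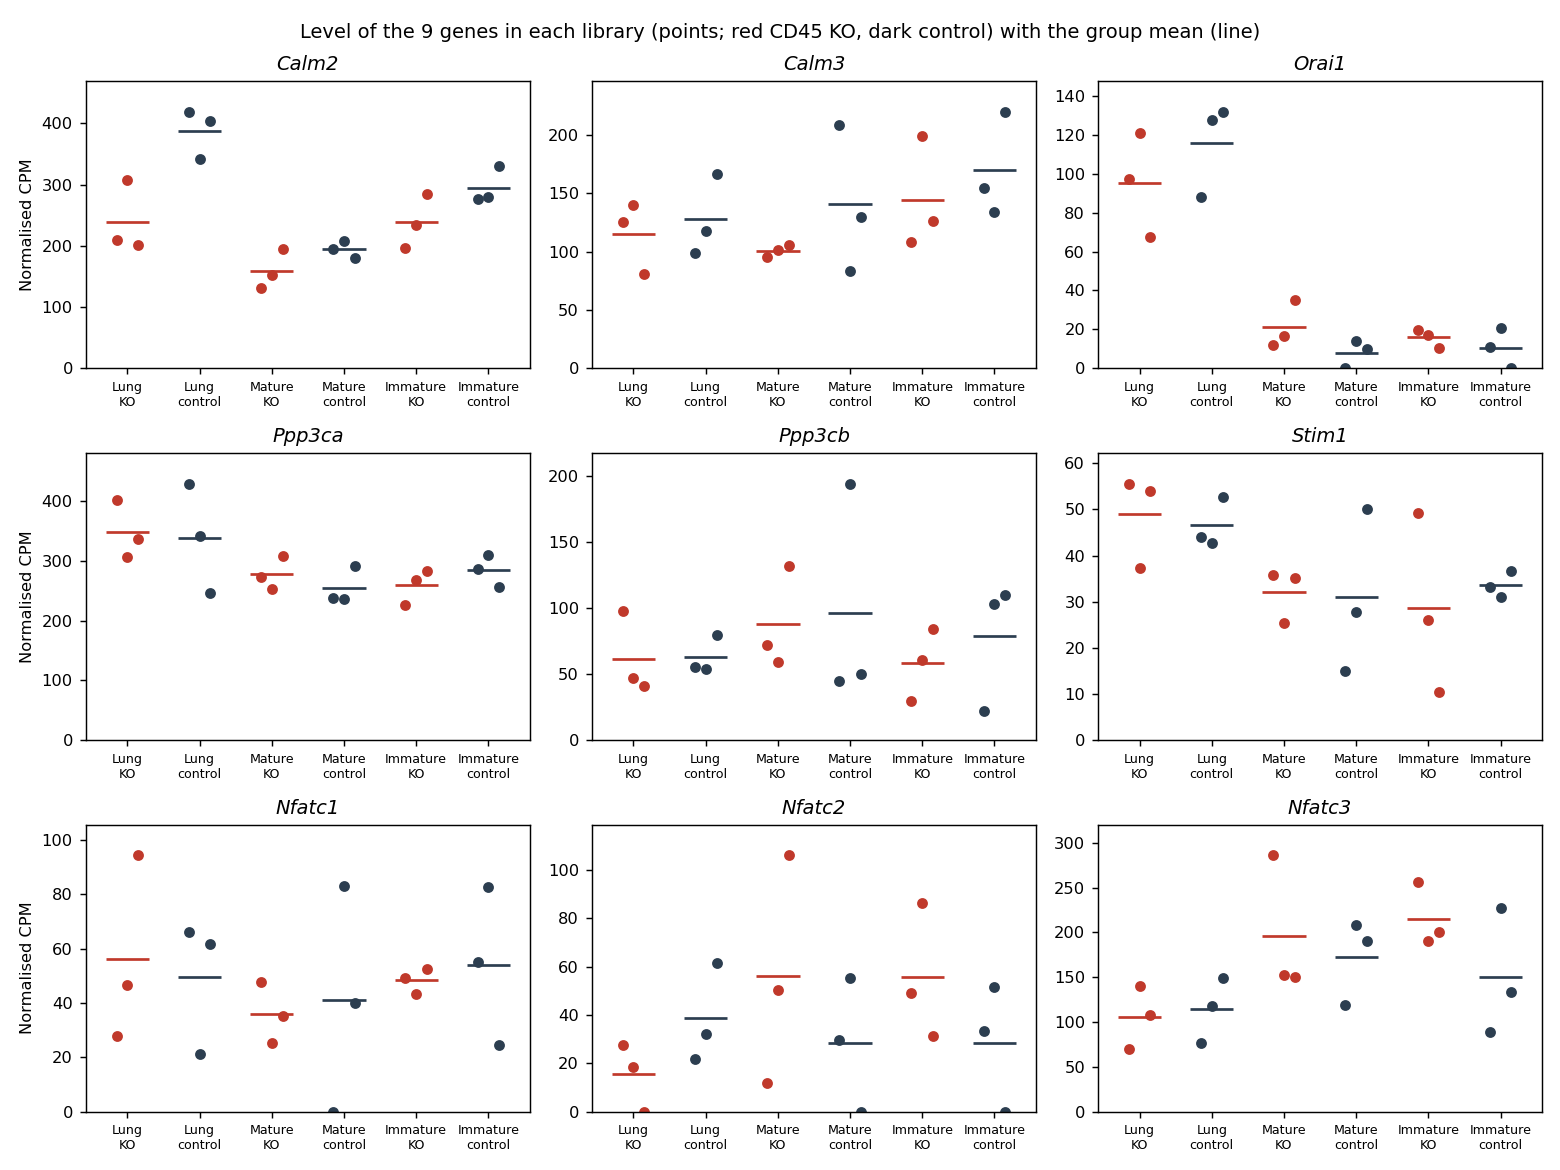
Normalised CPM (vertical axes, from 0, each gene with its own scale) of the 9 genes in each of the 18 libraries, in the order lung, mature and immature ILC2 with CD45 KO left of control. Points are libraries and lines are means of 3; Orai1 lies between 67.5 and 132 CPM in the 6 lung libraries and at or below 35.2 CPM in the 12 marrow libraries.

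Orai1, the pore subunit of the store-operated calcium channel (chromosome 5, 123015074 to 123030456, plus strand, mm10), had the largest lung over marrow difference of the 9. It was at 97.3, 121 and 67.5 CPM in CD45 KO and 88.2, 128 and 132 CPM in control lung ILC2. In mature marrow ILC2 it was at 11.9, 16.8 and 35.2 CPM in CD45 KO and 0, 13.9 and 10 CPM in control libraries. In immature marrow ILC2 it was at 19.7, 17.3 and 10.5 CPM in CD45 KO and 11.1, 20.7 and 0 CPM in control libraries. Every lung library was above every marrow library, a pattern that 10.4% of the tested genes shared. Lung over marrow, averaged over genotypes and marrow stages, Orai1 rose by 2.86 ± 0.39 on the log2 scale (adjusted p = 1.65e-09). In that comparison 21.8% of tested genes were called higher and 20.7% lower. Orai1 entered this test through lung, with 5 to 15 counts a library there and at most 4 in marrow. In the fit without a count filter, which does not select genes this way, Orai1 rose by 2.95 ± 0.38 (edgeR adjusted p = 7.14e-13). That fit called 9.2% of genes in either direction. The whole lung set held 60 Orai1 counts in 6 libraries and the marrow set 17 in 12, a depth-corrected ratio of 7.27 (95% interval 4.19 to 13.3, counting error only).

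The tissue difference of Orai1 passed in both genotypes and against both marrow stages. In controls it was 3.61 ± 0.76 over mature ILC2 (adjusted p = 7.81e-05, where 15% of tested genes were called higher) and 3.25 ± 0.69 over immature ILC2 (adjusted p = 9.67e-05, 14.6% called higher). These rest on 35 counts in lung against 2 and 3 in the marrow groups, count ratios of 14.0 (3.60 to 120) and 10.5 (3.32 to 53.6). In CD45 KO it was 2.08 ± 0.61 over mature (adjusted p = 0.00543, 14.8% called higher) and 2.52 ± 0.65 over immature ILC2 (adjusted p = 0.00145, 15.7% called higher). Without lung CD45 KO replicate 2, which held 13 of the 25 counts of its group, the difference from mature CD45 KO ILC2 was 1.83 and did not pass (adjusted p = 0.0647). Without the 3 libraries that stood apart it was 1.88 (adjusted p = 0.0455). By group mean the order was lung control (116 CPM), lung CD45 KO (95.3), mature CD45 KO (21.3), immature CD45 KO (15.8), immature control (10.6) and mature control (7.97). Only the step between the lung and marrow groups was larger than the spread of neighbouring groups. CD45 KO over control gave -0.26 ± 0.45 in lung, 1.27 ± 1.04 in mature and 0.48 ± 1.01 in immature ILC2 (edgeR adjusted p = 0.895, 0.78 and 0.91). The 95% intervals were -1.15 to 0.63, -0.80 to 3.34 and -1.54 to 2.49, and those of both marrow stages include a 2-fold rise. In bulk libraries fewer cells of a type and less RNA per cell cannot be told apart, and this holds for each difference given here.

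The DNA just before the starts of Orai1 and Nfatc3 is shown because these are the called genes for which RefSeq promoter sequence was given. Windows of 250 bases upstream of each RefSeq start (build GRCm38.p6) were searched on both strands for the NFAT core GGAAA, the AP-1 site TGANTCA, which often lies beside NFAT sites, and the Sp1 GC box GGGCGG. No 2 of these motifs overlap in the windows printed. Capitals mark NFAT cores and GC boxes on either strand. The Orai1 window lies at chr5:123014824-123015073 on the plus strand, and those of the 2 Nfatc3 starts at chr8:106058568-106058817 and chr8:106059340-106059589 on the plus strand.
Orai1: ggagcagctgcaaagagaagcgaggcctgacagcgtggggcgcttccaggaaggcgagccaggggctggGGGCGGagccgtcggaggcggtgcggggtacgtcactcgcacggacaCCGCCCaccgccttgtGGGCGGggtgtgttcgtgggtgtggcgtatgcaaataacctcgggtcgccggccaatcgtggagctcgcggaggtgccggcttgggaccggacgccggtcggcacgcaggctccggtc
Nfatc3, first start: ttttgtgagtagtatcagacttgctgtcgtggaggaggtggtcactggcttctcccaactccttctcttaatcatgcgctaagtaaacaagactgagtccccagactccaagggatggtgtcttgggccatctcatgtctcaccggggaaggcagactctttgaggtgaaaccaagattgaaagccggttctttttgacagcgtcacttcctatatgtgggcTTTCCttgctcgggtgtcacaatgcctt
Nfatc3, second start: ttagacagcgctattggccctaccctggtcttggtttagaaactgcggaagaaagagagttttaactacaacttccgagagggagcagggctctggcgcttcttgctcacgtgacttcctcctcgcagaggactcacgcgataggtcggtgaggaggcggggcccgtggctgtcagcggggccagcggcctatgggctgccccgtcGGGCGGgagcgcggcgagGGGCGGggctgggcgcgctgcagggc
The Orai1 window held 3 GC boxes, no NFAT core and no AP-1 site, with 70.8% G and C. The first Nfatc3 window held 1 NFAT core and no GC box (49.6% G and C), and the second held 2 GC boxes and no NFAT core (65.2%). Over all 32851 RefSeq windows of this length, 55.6% held an NFAT core, 32.7% a GC box and 6.75% an AP-1 site. A match describes these letters only.

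Stim1, the calcium sensor of the endoplasmic reticulum (chromosome 7, 102267806 to 102437319, plus strand), was close to the counting limit. It was at 55.6, 37.2 and 54.0 CPM in CD45 KO and 44.1, 42.8 and 52.8 CPM in control lung ILC2, at 4 to 6 counts a library. The marrow libraries lay between 10.5 and 50.1 CPM (median 32.1), 1 to 5 counts each, and overlapped the lung range. Lung over marrow gave 0.63 ± 0.40 (95% interval -0.14 to 1.41, adjusted p = 0.405), where 9.2% of the 12945 genes were called, and no comparison of CD45 KO with control went beyond 0.12 in size, although the mature value was -0.32 without the 3 libraries that stood apart. The intervals of those comparisons span at least -1.16 to 1.21 on the log2 scale, so a 2-fold effect on Stim1 was not excluded at this depth.

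Calmodulin was represented by Calm2 (chromosome 17, 87433412 to 87446935, minus strand) and Calm3 (chromosome 7, 16915379 to 16924114, minus strand), which encode the same protein. Calm2 was at 209, 307 and 202 CPM in CD45 KO and 419, 342 and 404 CPM in control lung ILC2. All 3 CD45 KO libraries were below all 3 controls, as were 7.41% of tested genes in lung. The log2 fold change was -0.65 ± 0.23 (95% interval -1.11 to -0.19), with an unadjusted p of 0.00621 and an adjusted p of 0.118, which did not pass. In mature marrow ILC2 Calm2 was at 131, 152 and 194 CPM in CD45 KO and 194, 208 and 180 CPM in control libraries (-0.26 ± 0.29, adjusted p = 0.866). In immature marrow ILC2 it was at 197, 234 and 284 CPM in CD45 KO and 276, 279 and 330 CPM in control libraries (-0.31 ± 0.24, adjusted p = 0.652). The groups overlapped in both marrow stages.

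Of the single tissue comparisons of Calm2, only that of lung with mature controls passed. Control lung ILC2 were above mature controls by 1.01 ± 0.25 (adjusted p = 0.000965), with no overlap, as for 20.5% of tested genes. The difference from immature controls (0.40 ± 0.22, adjusted p = 0.185), without overlap as for 20.1% of tested genes, did not pass. Nor, among CD45 KO ILC2, did those from mature (0.61 ± 0.27, adjusted p = 0.0948) and immature ILC2 (0.06 ± 0.25, adjusted p = 0.915). Over all libraries lung was higher than marrow by 0.52 ± 0.15 (adjusted p = 0.00362), which became 0.39 (adjusted p = 0.0766) without lung CD45 KO replicate 2. Mature ILC2 lay below immature ILC2 in controls (-0.60 ± 0.27) and in CD45 KO (-0.56 ± 0.26) with no overlap of libraries, as did 5.11% and 5.90% of tested genes, and neither passed (adjusted p = 0.858 and 0.578) in comparisons that called 0.0522% and 0.678% of tested genes. By group mean the order was lung control (389 CPM), immature control (295), lung CD45 KO (239), immature CD45 KO (238), mature control (194) and mature CD45 KO (159). Of neighbours in that order, only lung control and immature control did not overlap.

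Calm3 passed in none of the comparisons. It was at 125, 140 and 81.0 CPM in CD45 KO and 99.2, 118 and 167 CPM in control lung ILC2. In mature marrow it was at 95.3, 101 and 106 CPM in CD45 KO and 209, 83.3 and 130 CPM in control ILC2, and in immature marrow at 108, 199 and 126 CPM in CD45 KO and 155, 134 and 220 CPM in control ILC2. Groups overlapped in each population, with log2 fold changes of -0.14 ± 0.36 in lung, -0.45 ± 0.37 in mature and -0.19 ± 0.32 in immature ILC2 (adjusted p = 0.953, 0.78 and 0.88). Without the 3 libraries that stood apart the mature value was -0.10 (0.972). Lung over marrow gave -0.13 ± 0.22 (adjusted p = 0.654). Mature lay below immature CD45 KO ILC2 without overlap (-0.53 ± 0.34, adjusted p = 0.723), as did 5.9% of tested genes.

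Calcineurin pairs a regulatory subunit with a catalytic subunit, such as those encoded by Ppp3ca (chromosome 3, 136670124 to 136937727, plus strand) and Ppp3cb (chromosome 14, 20499364 to 20546573, minus strand). Ppp3ca was at 403, 307 and 337 CPM in CD45 KO and 430, 342 and 246 CPM in control lung ILC2. In mature marrow it was at 274, 253 and 308 CPM in CD45 KO and 238, 236 and 291 CPM in control ILC2, and in immature marrow at 227, 268 and 284 CPM in CD45 KO and 287, 310 and 256 CPM in control ILC2. The groups overlapped in every population, and the CD45 effects were 0.04 ± 0.22 in lung, 0.10 ± 0.25 in mature and -0.14 ± 0.24 in immature ILC2 (adjusted p = 0.967, 0.956 and 0.88). Their 95% intervals, -0.40 to 0.49, -0.39 to 0.59 and -0.61 to 0.34, do not reach a 2-fold change in either direction. Lung over marrow gave 0.33 ± 0.14 (adjusted p = 0.0561). That value sits at the threshold: it passed with DESeq2 size factors (adjusted p = 0.0475), with a stricter count filter (0.037) and without 1 of 5 libraries (lowest 0.0153, without lung control replicate 3), and was 0.26 (0.189) without the 3 libraries that stood apart.

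Ppp3cb was at 97.3, 46.5 and 40.5 CPM in CD45 KO and 55.1, 53.5 and 79.1 CPM in control lung ILC2. The marrow libraries spread between 22.1 and 194 CPM (median 66.0) and contained the whole lung range. Lung over marrow gave -0.25 ± 0.31 (adjusted p = 0.846), and the CD45 effects were -0.09 in lung, 0.07 in mature and -0.34 in immature ILC2 (adjusted p = 1, 1 and 0.989). Without the 3 libraries that stood apart they were -0.51 in lung and -0.13 in mature ILC2 (adjusted p = 1 each), and lung over marrow was -0.53 (0.455). Of the summed Ppp3ca and Ppp3cb counts, Ppp3ca took 85.3% in CD45 KO and 83.9% in control lung ILC2, 75.9% in CD45 KO and 73.8% in control mature ILC2, and 81.8% in CD45 KO and 78.6% in control immature ILC2. Such shares do not depend on the scaling between libraries and are descriptions without a test, since 3' counts of different genes are not compared as levels.

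Among the NFAT genes, Nfatc3 (chromosome 8, 106058840 to 106130537, plus strand), a calcium-regulated family member, was lower in lung. It was at 69.5, 140 and 108 CPM in CD45 KO and 77.2, 118 and 149 CPM in control lung ILC2. In mature marrow ILC2 it was at 286, 152 and 150 CPM in CD45 KO and 119, 208 and 190 CPM in control libraries. In immature marrow ILC2 it was at 256, 190 and 200 CPM in CD45 KO and 88.4, 227 and 134 CPM in control libraries. Lung and marrow controls overlapped, whereas each CD45 KO lung library was below each CD45 KO marrow library, as for 16.4% of tested genes against mature and 17.1% against immature ILC2.

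Lung over marrow, Nfatc3 fell by 0.67 ± 0.22 (adjusted p = 0.00864). Without a count filter the value was -0.58 and did not pass (adjusted p = 0.067), and without the 3 libraries that stood apart it was -0.53 (0.048). The difference passed singly only for CD45 KO lung over CD45 KO immature ILC2, at -0.955 ± 0.34 (adjusted p = 0.0248), where 9.55% of tested genes were called lower. That call was lost without a filter (0.126), with the DESeq2 test (0.12), and without immature CD45 KO replicate 1 or lung CD45 KO replicate 1 or 3 (highest 0.136), and was -0.76 (0.107) without the 3 libraries that stood apart. Against mature ILC2 it was -0.76 ± 0.34 in CD45 KO (adjusted p = 0.102), which became -0.25 (0.742) without the 3 libraries that stood apart, and -0.58 ± 0.35 in controls (adjusted p = 0.24), and against immature controls -0.37 ± 0.35 (adjusted p = 0.482). CD45 KO and control overlapped in every population, with effects of -0.09 ± 0.38 in lung, 0.10 ± 0.31 in mature and 0.49 ± 0.31 in immature ILC2 (adjusted p = 0.967, 0.981 and 0.534). The mature value turned to -0.39 (0.771) without the 3 libraries that stood apart.

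The gene whose pattern was most like Nfatc3 over the 18 libraries was Rn45s, the ribosomal RNA precursor, with a Pearson r of 0.868 on log2 CPM. Psme2b (0.849) and Tpr (0.832) followed. Within the 6 lung libraries r with Rn45s was 0.726, and within the 12 marrow libraries 0.806. The points share tissue and library depth, so r is a description. Rn45s was at 45393 to 82117 CPM in CD45 KO and 67632 to 85889 CPM in control lung ILC2, and at 67762 to 167495 CPM over the marrow libraries, the highest being the library labelled mature CD45 KO replicate 1, which also held the highest Nfatc3. With Rn45s taken out of the library totals Nfatc3 was lower in lung by a similar amount (-0.70, adjusted p = 0.0053). The part of Rn45s in the Nfatc3 difference was not tested further. Nfatc3 overlaps the 3' end of Esrp2 on the opposite strand, and Esrp2 had 0 counts in all 18 libraries.

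Nfatc1 (chromosome 18, 80606205 to 80713071, minus strand), the family member known for autoregulation in lymphocytes, was at 27.8, 46.5 and 94.4 CPM in CD45 KO and 66.1, 21.4 and 61.6 CPM in control lung ILC2. The marrow libraries lay between 0 and 83.3 CPM (median 45.5). Groups overlapped everywhere, with CD45 effects of 0.15 ± 0.57 in lung, -0.13 ± 0.65 in mature and -0.12 ± 0.56 in immature ILC2 (adjusted p = 1 each) and 0.32 ± 0.36 for lung over marrow (adjusted p = 0.798). Without the 3 libraries that stood apart the CD45 effect was 0.40 in lung and -0.82 in mature ILC2 (adjusted p = 1 each).

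Nfatc2 (chromosome 2, 168476410 to 168601657, minus strand), which cooperates with AP-1 at cytokine genes in T cells, had few counts. It was at 27.8, 18.6 and 0 CPM in CD45 KO and 22.0, 32.1 and 61.6 CPM in control lung ILC2. In mature marrow it was at 11.9, 50.5 and 106 CPM in CD45 KO and 29.8, 55.5 and 0 CPM in control ILC2, and in immature marrow at 49.3, 86.5 and 31.5 CPM in CD45 KO and 33.2, 51.7 and 0 CPM in control ILC2. The groups overlapped in each population. Summed counts of 4 in CD45 KO and 12 in control lung ILC2 gave a ratio of 0.392 (0.0921 to 1.29), 19 in CD45 KO and 6 in control mature ILC2 a ratio of 2.39 (0.918 to 7.32), and 18 in CD45 KO and 8 in control immature ILC2 a ratio of 1.94 (0.802 to 5.15). These intervals hold counting error only. With the spread between libraries the CD45 effects were -1.27 ± 0.79 in lung, 1.33 ± 0.66 in mature and 1.01 ± 0.62 in immature ILC2 (edgeR adjusted p = 0.965, 0.952 and 0.903). The effect in lung differed from that in mature ILC2 by -2.60 ± 1.03, at an unadjusted p of 0.0118 and an adjusted p of 0.921, and did not pass. CD45 KO lung lay below CD45 KO immature ILC2 without overlap (-1.73 ± 0.73, adjusted p = 0.23), a pattern of 17.1% of the genes with enough counts to be tested. Against mature CD45 KO ILC2 it was -1.83 ± 0.72 (adjusted p = 0.183), which became -2.26 (0.0481) when the library labelled mature CD45 KO replicate 1 was left out and -2.62 (0.0689) without all 3 libraries that stood apart.

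Of the counts of the 3 NFAT genes, Nfatc3 took 60.9% in CD45 KO and 56.5% in control lung ILC2, 66.3% in CD45 KO and 72.4% in control mature ILC2, and 67.0% in CD45 KO and 64.1% in control immature ILC2. Over the 9 genes the test called 0 of 5 in each CD45 comparison by edgeR and by DESeq2, where edgeR called 2.51% of tested genes in lung, 0.261% in mature and 1.67% in immature ILC2. At an unadjusted p under 0.05 there was 1 of the 5 in lung (Calm2) and none in the marrow stages, where 14.5% of tested genes were under it in lung, 9.03% in mature and 12.3% in immature ILC2. Of the 4 genes with few counts there was 1 in mature ILC2 (Nfatc2), where 4.71% of the 12945 genes were under it. The median log2 fold change of the 5 was -0.14 in lung, 0.10 in mature and -0.14 in immature ILC2, beside 0.01, 0.00 and -0.01 over all genes tested. The plot of CD45 effects shows the widths of these intervals.

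**Figure D2:**
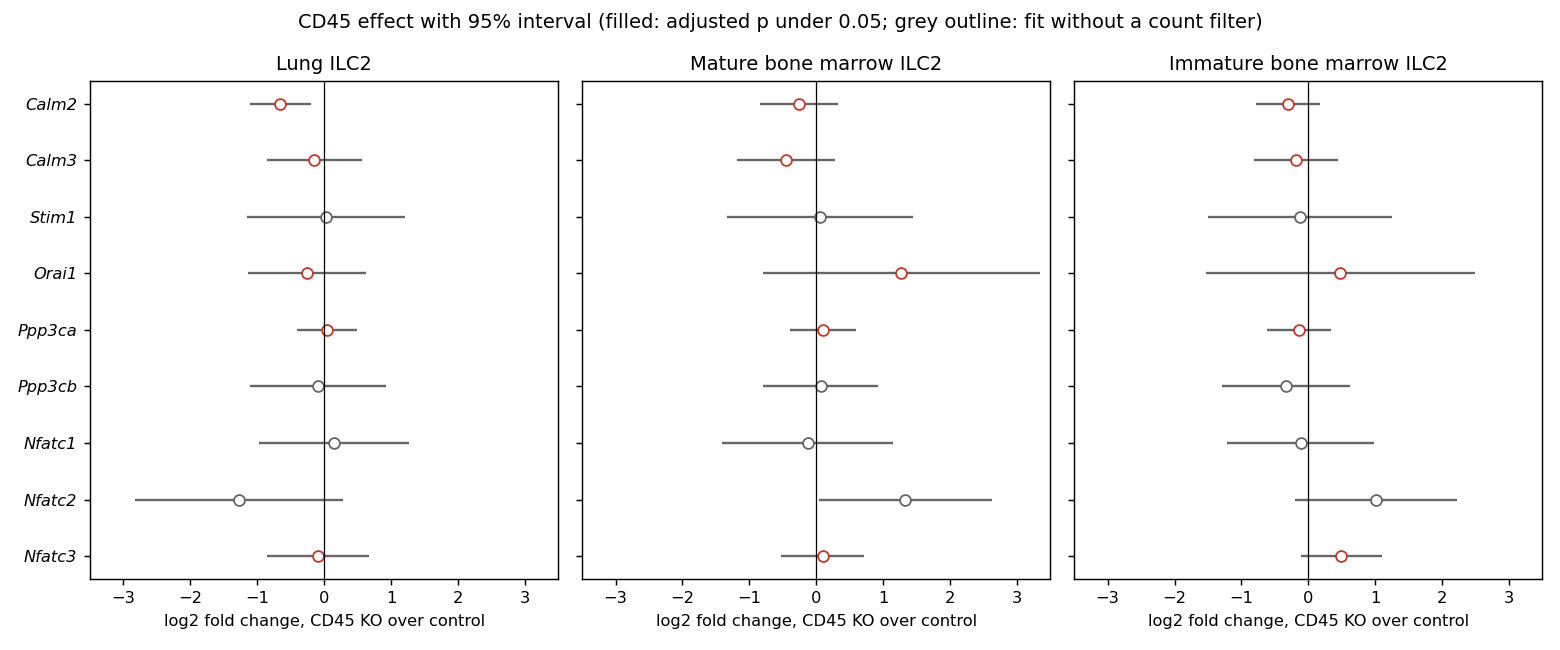
Log2 fold change of CD45 KO over control (horizontal axes) with 95% intervals for the 9 genes in lung, mature and immature ILC2; filled points have an adjusted p under 0.05. No point is filled; Calm2 in lung lies at -0.65, with an interval of -1.11 to -0.19.

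Other genes of the route were read from 4 lists. Of 18 genes of calcium entry and release, 5 could be tested and 0 passed for CD45 by edgeR or DESeq2 (1 at an unadjusted p under 0.05 in mature ILC2, none in lung or immature ILC2). For CD45 edgeR called 2.51% of all tested genes in lung, 0.261% in mature and 1.67% in immature ILC2. At an unadjusted p under 0.05 the shares were 14.5%, 9.03% and 12.3%. Lung over marrow, 3 of the 5 rose and none fell, where 21.8% of tested genes rose and 20.7% fell, with a median of 0.52 against -0.03 over all genes. Saraf, which limits store-operated calcium entry, averaged 247 ± 15.9 CPM in CD45 KO and 303 ± 26.5 CPM in control lung ILC2 (SD, n = 3), above every marrow library as were 10.4% of tested genes (1.07 ± 0.17, adjusted p = 2.23e-07). Atp2b1, a plasma membrane calcium pump, rose by 0.73 ± 0.14 (adjusted p = 7.65e-06), and Itpr2, a calcium release channel, by 0.45 ± 0.17 (adjusted p = 0.0277). Itpr2 did not pass with DESeq2 (0.0838), without the 3 libraries that stood apart (0.0872), or without any 1 of mature control replicates 1 and 3, immature control replicate 3, immature CD45 KO replicate 3, lung control replicate 2 and lung CD45 KO replicate 1 (highest 0.159).

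Of 18 calmodulin and calcineurin partners, 3 could be tested (Ppia, Camk1d and Hspa8). For CD45 0 of the 3 passed by edgeR or DESeq2, while at an unadjusted p under 0.05 there were 0 in lung ILC2, 1 in the mature stage (Hspa8) and 2 in the immature stage (Hspa8 and Ppia), beside 14.5% of tested genes in lung, 9.03% in mature and 12.3% in immature ILC2. Lung over marrow, Hspa8, a heat shock chaperone, rose by 0.21 ± 0.08 (adjusted p = 0.0251). Ppia, the cyclophilin through which cyclosporin inhibits calcineurin, was at 0.17 ± 0.08 (adjusted p = 0.0654), and the list median was 0.17. Without the 3 libraries that stood apart Hspa8 was at 0.18 and did not pass (0.0722), nor did it with Rn45s left out (0.0551) or without mature control replicate 2, lung control replicate 2 or lung CD45 KO replicate 1 (highest 0.103). Of 12 genes of the NFAT family, its kinases and transport, 4 could be tested and 0 passed for CD45 by either tool, with 0 at an unadjusted p under 0.05. In lung 2 of the 4 fell, Csnk1d, a casein kinase that phosphorylates NFAT (-1.12 ± 0.30, adjusted p = 0.00169), and Kpnb1, the importin beta subunit (-0.71 ± 0.24, adjusted p = 0.0103), with a median of -0.34 and none higher, beside 20.7% of tested genes lower. Kpnb1 did not pass without a filter (0.072), with DESeq2 (0.0575) or without lung CD45 KO replicate 1 (0.0501).

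**Figure D3:**
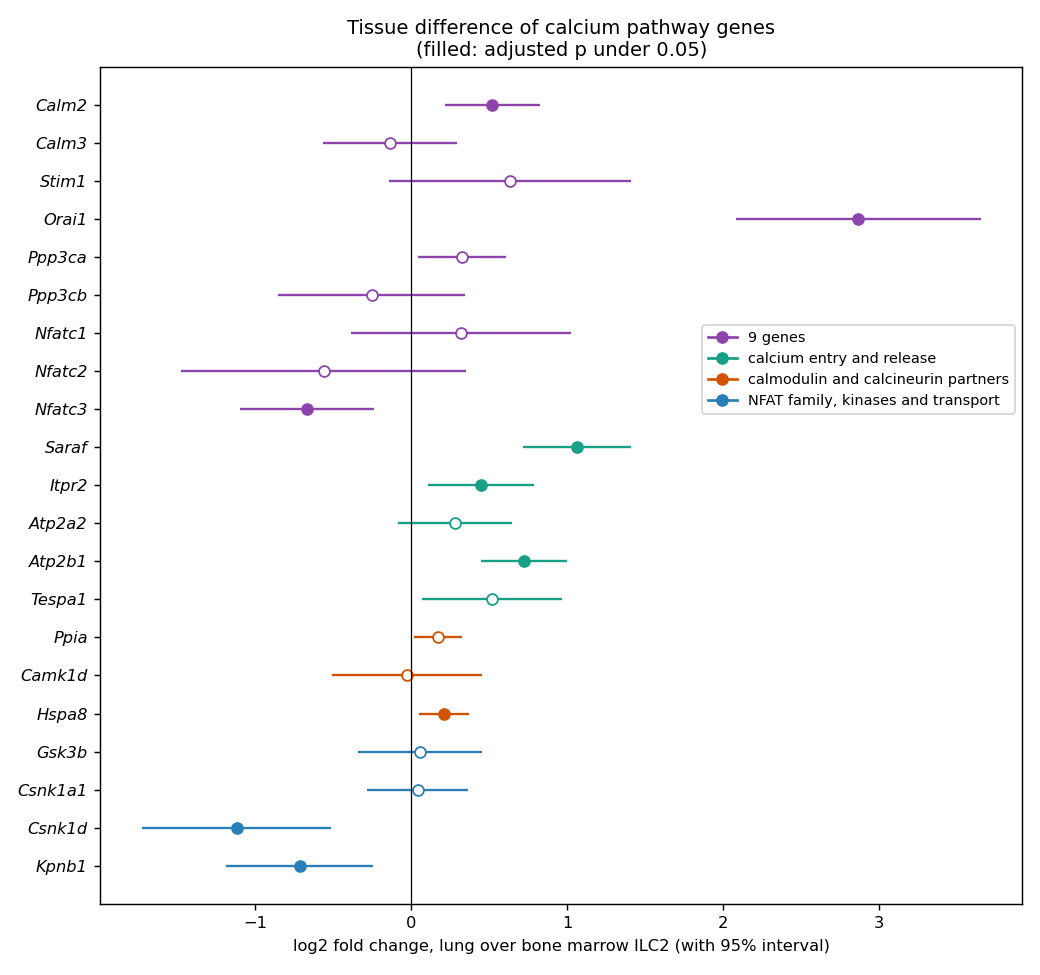
Log2 fold change of lung over bone marrow ILC2 (horizontal axis) with 95% intervals for the 9 genes and the tested members of 3 gene lists; filled points have an adjusted p under 0.05. Orai1 lies farthest to the right at 2.86, Saraf and Atp2b1 follow, and Csnk1d, Kpnb1 and Nfatc3 are filled left of 0.

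Of 20 genes known to depend on NFAT or calcineurin in lymphocytes, 10 could be tested. In lung ILC2 4 of the 10 were higher in CD45 KO than in control (Nr4a3, Il13, Il5 and Nr4a1) and none was lower, with a list median of 0.49, while 2.04% of tested genes were called higher. Nr4a1, an immediate-early nuclear receptor, averaged 3244 ± 368 CPM in CD45 KO and 2358 ± 428 CPM in control lung ILC2 (0.46 ± 0.13, adjusted p = 0.0302). Nr4a3, of the same family, averaged 1241 ± 172 CPM in CD45 KO and 578 ± 84.7 CPM in control lung ILC2 (1.11 ± 0.17, adjusted p = 1.93e-06). Il5, a type 2 cytokine, averaged 1028 ± 279 CPM in CD45 KO and 585 ± 116 CPM in control lung ILC2 (0.86 ± 0.19, adjusted p = 0.00191). Il13, another, averaged 276 ± 64.5 CPM in CD45 KO and 105 ± 80.1 CPM in control lung ILC2 (1.42 ± 0.40, adjusted p = 0.0346). DESeq2 called 1 of the 10 in lung, Nr4a3, which also passed in every other alternative run. Nr4a1 was lost with no filter (0.198) and without lung control replicate 2 or 3 or lung CD45 KO replicate 2 or 3 (highest 0.303), Il5 without lung control replicate 3 or lung CD45 KO replicate 2 (highest 0.141), and Il13 without any 1 of the 6 lung libraries but control replicate 2 (highest 0.329). The list was drawn up with earlier results of these libraries known, so its count is a description. In each marrow stage 0 of the 10 passed by edgeR or DESeq2, where edgeR called 0.261% of tested genes in mature and 1.67% in immature ILC2. At an unadjusted edgeR p under 0.05 there were 7 of the 10 in lung, 3 in mature and 0 in immature ILC2. Of all tested genes 14.5%, 9.03% and 12.3% were under it. The log2 fold change was positive for 7 of the 10 in lung, 3 in mature and 4 in immature ILC2. These counts too are descriptions. Lung over marrow 8 of the 10 rose, beside 21.8% of tested genes, with a median of 6.08, the same with Nr4a3 set to the bound that 3 counts over the marrow libraries give. Of the 10, Il2, Il13 and Nr4a3 had at most 3 counts each over the marrow libraries, so they entered the test through lung. Nr4a1, at most 35.2 CPM in marrow, entered the same way. Others may have too, such as Il5, which was higher in lung by 6.61 on the log2 scale. The count of 8 and the median depend on which genes could enter, and are a description. Nr4a3 was at 0 in all 12 marrow libraries, and Nr4a1 was at most 35.2 CPM there.

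The genes most like the other tested members over the 18 libraries were named by the same rule. For Orai1 they were Ahnak (r = 0.951), Igsf5 (0.95) and Myadm (0.947), all 3 higher in lung (log2 fold changes 3.83, 4.93 and 5.22), so that the tissue difference is part of each r. Within the 6 lung libraries r was 0.315 for Ahnak, 0.761 for Igsf5 and 0.905 for Myadm. For Calm2 they were Stab2 (0.822), Itm2b (0.739) and Zdhhc20 (0.733), and for Stab2 r was 0.924 within lung and 0.749 within marrow. For Ppp3ca they were Cerk (0.78), Siah2 (0.761) and Chd7 (0.743), and for Calm3 Wbp11 (0.696), Cul3 (0.674) and Psd4 (0.639). Among the 5 tested members themselves, r ran between -0.635 (Ppp3ca with Nfatc3) and 0.598 (Ppp3ca with Orai1).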

How the data were processed

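RNA was measured in 18 libraries of sorted ILC2. Per the labels' protocols, the reverse transcription primer was an oligo-dT with a molecular barcode, so counts stand for 3' ends. The labels give 200 sorted cells and also 100 cells per tube. The submitters' processing notes name STAR and mm10, without versions or roles. Not given in the sources used here: counting tool, annotation, use of strand and any collapsing by barcode. The authors deposited whole-number counts per gene symbol with no scaling. ERCC RNA was added per the labels, but the table has 0 ERCC entries, so no spike-in scaling was used.

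Counts were scaled with TMM factors, filtered with filterByExpr by group (minimum count 10), and 6 group means were fitted over all 18 libraries with edgeR 4.0.16 in R 4.3.3 (with limma 3.58.1). The test was edgeR's quasi-likelihood test, adjusted by Benjamini-Hochberg over 1916 genes, with 0.05 as the threshold. Standard errors are the absolute log2 fold change over the square root of F. Members under the filter were read from the fit of 12945 genes. Count ratios have exact intervals at 95%, for counting error only. Likeness used log2 CPM with a prior count of 2, naming the 3 genes with the highest r. Of each list, up to 4 passing members with the largest changes were named. Positions are from GENCODE M21, promoters from RefSeq, which gave windows for 6 of the 9 genes. The steps were tested on simulated counts.

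The replicate numbers were not used to pair the samples, since the sources used here do not say what they mark. Deviations of same-numbered libraries of different groups correlated at -0.0888 to 0.0755. With 3 libraries a group at this depth, such values cannot show whether same-numbered libraries shared a mouse or day. Alternatives were DESeq2 size factors, no filter, at least 10 counts in 3 libraries, the test of DESeq2 1.42.0, a fit restricted to the compared groups, a replicate block, and each library left out in turn. Fits without the 3 libraries that stood apart, and without Rn45s, were added after seeing the data. 2 listed genes are not reported here. The members and lists were chosen with earlier results of these data known.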

Additional observations from a re-analysis of the deposited data

How the results depend on the processing

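Across 144 results of single genes and their 2312 values under the alternatives, 2252 kept their call and direction, 60 lost or gained a call, and 0 reversed past the threshold. For lung over marrow 3 of the 9 genes were called, 2 higher and 1 lower among the 5 that could be tested. In that comparison 21.8% of tested genes were called higher and 20.7% lower. The number of the 9 called was 2 without a filter, 4 with DESeq2 size factors or the stricter count filter, and 3 to 4 when 1 library was left out. The number of the 9 genes called in CD45 KO lung over CD45 KO immature ILC2, 2 in the main fit, was 1 without a filter, 1 with the DESeq2 Wald test, 1 without the 3 libraries that stood apart, and 1 to 2 when 1 library was left out. The main fit called 15.7% of tested genes higher and 9.55% lower there. In CD45 KO lung over CD45 KO mature ILC2 the number of the 9 was 0 to 1 when 1 library was left out, 0 without lung CD45 KO replicate 2. There the main fit called 14.8% of tested genes higher. The number called was the same under every alternative in each comparison of CD45 KO with control (0 of 5). With the replicate number as a block, edgeR called 44 genes instead of 48 for CD45 in lung, 6 instead of 5 in mature and 30 instead of 32 in immature ILC2, and 807 instead of 813 for lung over marrow. The block changed the call of no member of the 9. Of the 18 libraries, 3 deviated most like their own number, which does not settle what the numbers mark. Depth limits Stim1, Ppp3cb, Nfatc1, Nfatc2 and, in marrow, Orai1, at a few counts a library.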
